A study of Danio rerio with 15 samples.

Results

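The genes described here are the translation initiation factors of the zebrafish, together with some of their regulators that share the eif symbol. They were taken as every gene of the authors' deposited table whose symbol begins with eif and a number. The base mean, the mean of normalized counts over the fitted libraries, had to be at least 50. This left 63 of the 36351 genes listed. By factor they were 4 eif1, 9 eif2, 5 eif2b, 17 eif3, 23 eif4, 4 eif5 and 1 eif6 genes, and they lay on 21 chromosomes. The lowest base mean among them was that of eif2ak2, at 184, and the only eif symbol left out was eif4e1b, at 1.28, per the authors' deposited table.

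Whole wild-type AB embryos were kept in water with 50 nM TCPMOH, tris(4-chlorophenyl)methanol, with 50 nM TCPM, tris(4-chlorophenyl)methane, or with 0.01% v/v DMSO, the solvent control. The exposure lasted 4 hours and began at 96 hours post fertilization (hpf), and animals were collected at 100 hpf. Pools of 8 to 10 embryos gave 1 library each, 5 libraries per group and 15 in all. The comparison available here is that of TCPMOH with DMSO, as the authors fitted it, and TCPM libraries were not analysed here. The series counts 3 experimental replicates without saying which pool belongs to which, so the deposited p-values measure the spread between pools, some of which may share a clutch. RNA of a whole animal mixes all tissues: fewer cells of a type and less RNA per cell cannot be told apart.

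The column header gives no numerator for the fold change, and the comparison is named with DMSO first. Every log2 fold change below is read as TCPMOH over DMSO, so that a negative value means lower with TCPMOH. If the authors divided the other way, every "lower" becomes "higher" and the reverse, while sizes, errors and p-values stand. No value per library was used, so each gene is given by its base mean, its log2 fold change with the authors' standard error (SE) and its p-value.

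Initiation is the step of protein synthesis at which a ribosome is brought to the start codon of a messenger RNA. The factor eIF2 carries the initiator methionyl-tRNA to the small ribosomal subunit, eIF1, eIF1A and eIF3 hold that subunit ready for scanning, and the eIF4 factors bind the mRNA cap and unwind the leader. After start codon recognition, eIF5 and eIF5B trigger GTP hydrolysis and joining of the large subunit. Cells adjust the process mainly by phosphorylating eIF2, which blocks its recharging by eIF2B, and by letting 4E-binding proteins sequester the cap-binding factor eIF4E. Both controls act on the proteins, which were not measured here.

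After TCPMOH exposure, 1 initiation factor gene was lower and 0 were higher once the DESeq2 Wald p-values were adjusted over all genes (adjusted p under 0.05). That gene was eif4bb, which encodes eIF4B, an RNA-binding protein that stimulates the helicase eIF4A. Of all 19257 genes with an adjusted p, 2.68% were called in either direction, 1.92% as lower and 0.758% as higher, so 1 call among 63 genes is no more than the share of the whole table. Most of the other members nonetheless had small negative values. The fold change was negative for 55 of 63 members (87.3%) and for 50.6% of all genes tested. The median log2 fold change was -0.10 for the members and near 0 (-0.0016) for all genes tested. Without the genes of eIF2 kinases, 4E-binding proteins and eif4enif1, 48 of 55 members were negative, with a median of -0.11.

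**Figure D1:**
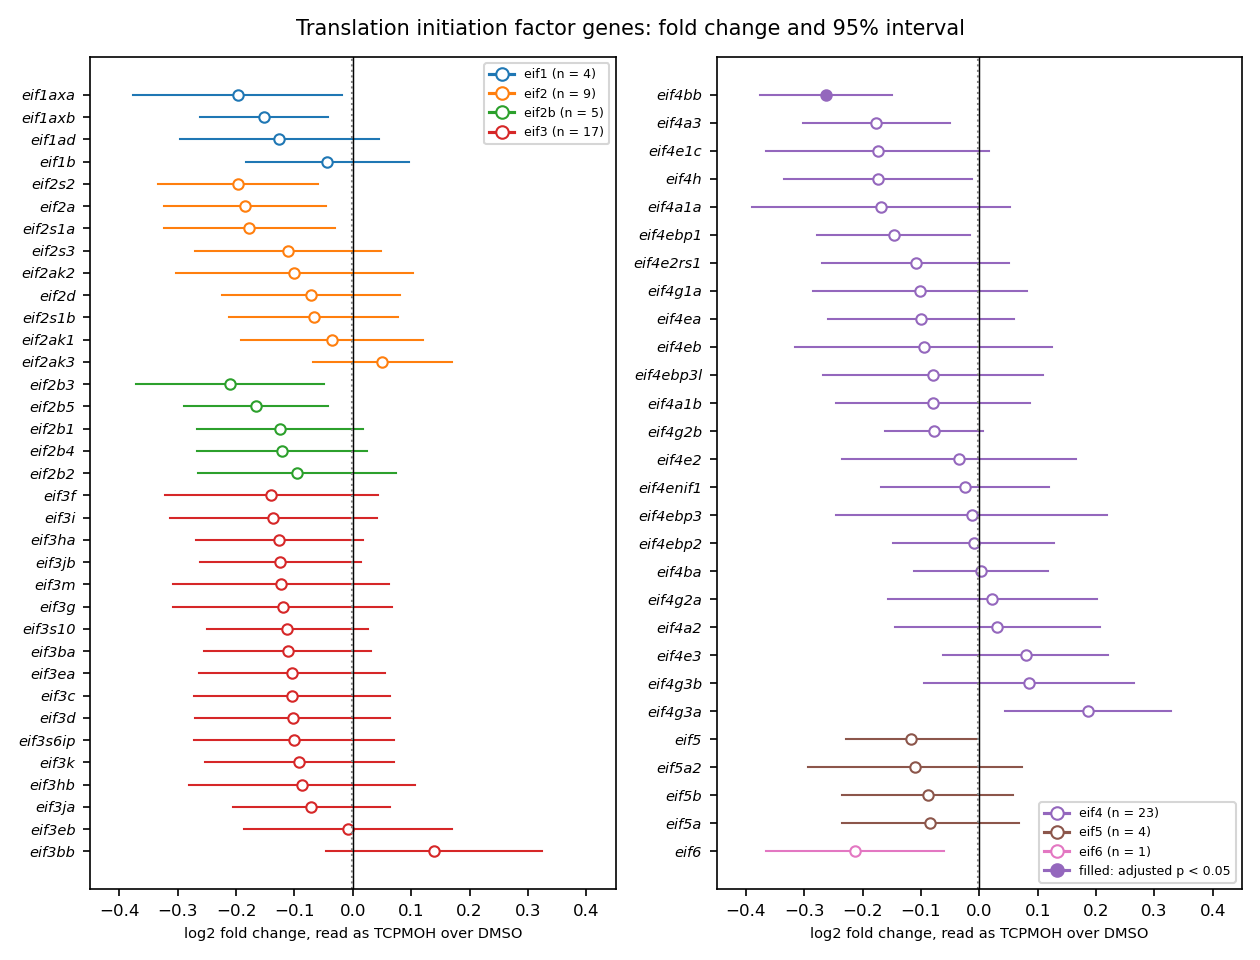
Log2 fold change of each of the 63 initiation factor genes (points) with its 95% interval (lines) on the horizontal axis, read as TCPMOH over DMSO, grouped by factor down the page. The dotted line is the median of all genes tested. The filled point, eif4bb at -0.26, is the only gene with an adjusted p under 0.05, and 55 of 63 points lie left of 0.

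The shift was small for each gene. The members ranged from -0.26 for eif4bb to 0.19 for eif4g3a, with 52 between -0.2 and 0, and 3 at or under -0.2. Their SEs according to the authors' deposited table ran from 0.0431 to 0.119 with a median of 0.0812, close to the size of the median shift. The 95% intervals built from these SEs excluded 0 for 14 members, and all 63 as deposited stayed inside a log2 fold change of 0.5 in either direction. The lowest bound was -0.39, equal to 1.31-fold lower, and the highest was 0.33. The deposited folds look shrunken toward 0, and with that shrinkage undone the intervals of 62 members stayed inside 0.5, with a lowest bound of -0.55, for eif4a1a, and a highest of 0.39, for eif3bb. At an unadjusted p under 0.05 there were 13 lower members and 1 higher member, 22.2% of the 63, beside 13.0% of all genes tested. At that level lower genes made up 20.6% of the members and 7.62% of all genes tested, while higher genes made up 5.43% of all genes tested.

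How far the values sit below 0 depends on how the libraries were scaled to each other. With all fold changes moved by 0.048 log2 units, so that both groups have the same summed counts, the median of the members was -0.06, with 48 of 63 negative, beside a median of 0.05 and 34.6% negative for all genes tested. The summed counts were reckoned from base means and deposited folds, as no value per library was used. Adjusted p-values given at equal sums come from the shifted folds over the deposited SEs. Such a shift moves every gene alike. By construction it cannot change the distance between the members and all genes, and it gives no information on that distance. The cause of that distance was not tested. The members were also more abundant and shorter than most genes. Their median base mean of 1621 lay above that of 87.3% of tested genes, and their median span on the genome was 13611 bp, beside 19648 bp for all genes tested. Among tested genes with a base mean of at least 1000, the median was -0.02 with 56.9% negative, whereas the 36 initiation factor genes at that level had a median of -0.11 with 33 negative. Neither abundance nor length was matched by this cut. The 36 genes had a median base mean of 4349 and a median span of 13557.5 bp, beside 1764 and 25805 bp for the tested genes at that level. After removal of the trend with gene span, the median of the members was -0.09 with 54 negative.

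**Figure D2:**
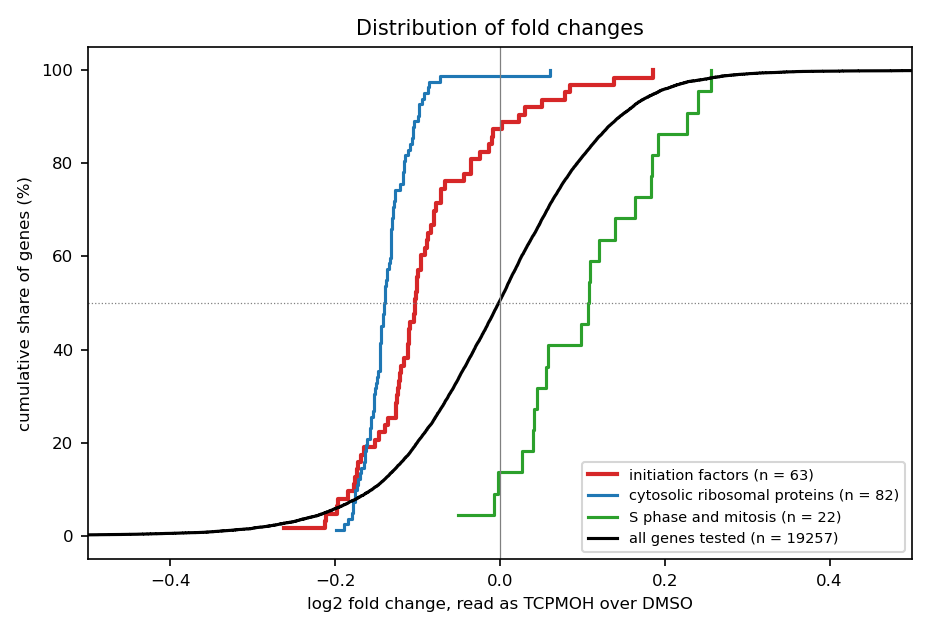
Cumulative share of genes (vertical axis, %) against log2 fold change read as TCPMOH over DMSO (horizontal axis) for the 63 initiation factors, 82 cytosolic ribosomal protein genes, 22 S phase and mitosis genes and all 19257 genes tested. The curve of the initiation factors crosses 50% at -0.10, between the ribosomal protein genes at -0.14 and all genes near 0.

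The 23 eif4 genes had a median of -0.08, with 17 negative. The called gene belongs to the eIF4A helicase module, whose cofactor genes lay far apart. The gene eif4bb had a base mean of 3001 and a log2 fold change of -0.26 (SE 0.0575; DESeq2 adjusted p = 7.34e-04) according to the authors' deposited table, 1.20-fold lower with a 95% interval from -0.37 to -0.15. It lies on the minus strand of chromosome 6 from 39064824 to 39080701, as deposited. No other gene with a base mean of at least 50 overlapped its span. Its call held at an adjusted p threshold of 0.01, with both groups set to equal sums (adjusted p = 0.0129 from the DESeq2 statistics) and after removal of the span trend (0.00173). It was lost, at adjusted p = 0.0654 from the same DESeq2 statistics, when all Wald statistics were divided by their own spread of 1.30.

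The second eIF4B gene, eif4ba, stood at 0.00 (0.0025, SE 0.0588; DESeq2 adjusted p = 0.991) with a base mean of 921 according to the authors' deposited table. The difference between the eIF4B copies, eif4bb minus eif4ba, was -0.26, with an SE of 0.0822 if their errors are independent and of at most 0.116 whatever their correlation. It was given no p-value, since the pair was looked at with the values known. The related cofactor gene eif4h, whose product also stimulates eIF4A, stood at -0.17 (SE 0.0823; unadjusted p = 0.0355, DESeq2 adjusted p = 0.321) according to the authors' deposited table.

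The helicase genes themselves did not pass, where 2.68% of all genes tested did. In the authors' deposited table eif4a1a stood at -0.17 (SE 0.113), eif4a1b at -0.08 (SE 0.0847) and eif4a2 at 0.03 (SE 0.0895), with DESeq2 adjusted p-values from 0.552 to 0.923. The SE of eif4a1a was among the larger ones in the family, and its 95% interval, from -0.39 to 0.05, gave the lowest bound of all members. A further relative, eif4a3, encodes the helicase of the exon junction complex, which is loaded onto spliced mRNA and is not a part of the cap-binding complex. Its log2 fold change was -0.18 (SE 0.0641; unadjusted p = 0.00602, DESeq2 adjusted p = 0.128) according to the authors' deposited table.

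Scaffold genes of the eIF4G family held the highest value of the 63. The eIF4G proteins bridge the cap-binding factor and the ribosome-bound eIF3. The gene eif4g3a stood at 0.19 (SE 0.0724; unadjusted p = 0.0102, DESeq2 adjusted p = 0.175) with a base mean of 1167 according to the authors' deposited table, and was the only member with an unadjusted p under 0.05 on the positive side. It passed after the shift to equal sums alone, at 0.23 (adjusted p = 0.0450 from the DESeq2 statistics). That p-value lies close to the threshold and rests on deposited folds and SEs that look shrunken, so the call is uncertain. Its paralog eif4g3b stood at 0.08 (SE 0.0917) according to the authors' deposited table. Of the other scaffold genes there, eif4g1a stood at -0.10 (SE 0.0938), and the paralogs of eif4g2, whose mammalian product lacks the eIF4E-binding site, stood at 0.02 for eif4g2a (SE 0.0912) and -0.08 for eif4g2b (SE 0.0431). These 5 genes had a median of 0.02, with 3 positive and 2 negative values.

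None of the genes of cap-binding factors and their inhibitors passed, beside 2.68% of all genes tested, which for so few genes is near the share of the whole table. The classical eIF4E genes eif4ea and eif4eb both stood at -0.10 (SE 0.0813 and 0.112) at base means of 369 and 295 according to the authors' deposited table. Of the other cap-binding relatives there, eif4e1c stood at -0.17 (SE 0.0976), eif4e2rs1 at -0.11 (SE 0.0817), eif4e2 at -0.04 (SE 0.102) and eif4e3 at 0.08 (SE 0.0720). None of these 6 had an unadjusted p under 0.05, beside 13.0% of all genes tested, again no clear departure for so few genes. The genes of 4E-binding proteins, which compete with eIF4G for eIF4E when unphosphorylated, were eif4ebp1 at -0.15 (SE 0.0670; unadjusted p = 0.0287, DESeq2 adjusted p = 0.291), eif4ebp2 at -0.01, eif4ebp3 at -0.01 and eif4ebp3l at -0.08 according to the authors' deposited table. The gene eif4enif1, for a protein that carries eIF4E into the nucleus, stood at -0.02 (SE 0.0737) according to the authors' deposited table. The values of eif4ebp2, eif4ebp3, eif4enif1 and eif4e2 were so close to 0 that the shift to equal sums turned them positive.

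The 9 eif2 genes had a median of -0.10, with 8 negative. Among them, the 4 genes for eIF2 subunits had negative values and a median of -0.14. The beta subunit gene eif2s2 had the smallest p of the members that did not pass, at -0.20 (SE 0.0698; unadjusted p = 0.00500, DESeq2 adjusted p = 0.114) with a base mean of 3774 according to the authors' deposited table. Of the alpha subunit genes, which encode the subunit that the stress kinases phosphorylate, eif2s1a stood at -0.18 (SE 0.0751; unadjusted p = 0.0184) and eif2s1b at -0.07 (SE 0.0739) according to the authors' deposited table. The copy with the lower base mean, eif2s1a at 920 beside 3042 for eif2s1b, had the more negative value. The gamma subunit gene eif2s3, whose product binds GTP and the initiator tRNA, stood at -0.11 (SE 0.0812) according to the authors' deposited table. The gene eif2a, whose product is a separate carrier of initiator tRNA and not an eIF2 subunit, stood at -0.18 (SE 0.0706; unadjusted p = 0.00887, DESeq2 adjusted p = 0.161) there, and eif2d, for a recycling and reinitiation factor, at -0.07 (SE 0.0776).

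Both catalytic subunit genes of eIF2B, the exchange factor that reloads eIF2 with GTP, were among the lower values. In the authors' deposited table eif2b3 (gamma subunit) stood at -0.21 (SE 0.0820; unadjusted p = 0.0102) and eif2b5 (epsilon subunit) at -0.17 (SE 0.0631; unadjusted p = 0.00869), with DESeq2 adjusted p-values of 0.175 and 0.161. The genes of the regulatory subunits, which sense phosphorylated eIF2, were nearer to 0. None of them had an unadjusted p under 0.05, beside 13.0% of all genes tested. These regulatory genes were eif2b1 at -0.12 (SE 0.0727), eif2b4 at -0.12 (SE 0.0741) and eif2b2 at -0.10 (SE 0.0865) according to the authors' deposited table. All 5 values were negative, and the group's median was -0.12, or -0.08 after the shift to equal sums. Whether catalytic and regulatory subunit genes differ was not tested, and this split was chosen after the values were seen.

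None of the eIF2 kinase genes passed, beside 2.68% of all genes tested. In the authors' deposited table eif2ak1, for the heme-regulated kinase, stood at -0.04 (SE 0.0794), eif2ak2, for the kinase activated by double-stranded RNA, at -0.10 (SE 0.104), and eif2ak3, for the kinase of the endoplasmic reticulum stress response, at 0.05 (SE 0.0609). Their DESeq2 adjusted p-values were at least 0.731. The amino acid-sensing kinase gene is written in capitals as EIF2AK4 and so falls outside the symbol rule; it stood at -0.18 (SE 0.0961; unadjusted p = 0.0608) according to the authors' deposited table. A list of atf4a, atf4b and further genes of the mammalian response to eIF2 phosphorylation had 0 calls among 20 tested genes. With 2.68% of all genes called, this is near the share of the whole table. At an unadjusted p under 0.05 the list had 3 lower genes (15%) and 0 higher, beside 7.62% lower and 5.43% higher of all genes tested. In this list according to the authors' deposited table atf4a stood at -0.06 (SE 0.0979), atf4b at -0.05 (SE 0.0543), ddit3 at 0.06 (SE 0.0924) and ppp1r15a at -0.03 (SE 0.111). The smallest p of this list was that of phgdh, of serine synthesis, at -0.27 (SE 0.0887; DESeq2 adjusted p = 0.0704) according to the authors' deposited table. The other 2 lower genes there were mthfd2 at -0.23 (SE 0.109; DESeq2 unadjusted p = 0.0391) and sesn2 at -0.21 (SE 0.0964; unadjusted p = 0.0283). The median of the list was -0.04, turning to 0.01 after the shift to equal sums.

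The genes around start codon scanning include eif1 and eif1ax. All 4 eif1 genes were negative, with a median of -0.14. In the authors' deposited table eif1axa stood at -0.20 (SE 0.0910; unadjusted p = 0.0300) and eif1axb at -0.15 (SE 0.0556; unadjusted p = 0.00623, DESeq2 adjusted p = 0.131). These are paralogs encoding eIF1A, which helps eIF2 and its tRNA bind the small subunit. The gene listed as eif1b on chromosome 19, which RefSeq's table for GRCz12tu names eif1, encodes a gatekeeper of start codon choice and stood at -0.04 (SE 0.0713) according to the authors' deposited table. The gene eif1ad, for an eIF1A domain protein, stood at -0.13 (SE 0.0873) there. The span of eif1axa lies inside that listed for kat5b, which covers 43157426 bp on the same strand, and how reads within both were assigned is not stated. In all, 12 of the 63 members overlapped another gene whose base mean was 50 or more, and without them the median of the members was again -0.10. Besides kat5b, several of the overlapped entries have very long listed spans, such as znf1124 (53252994 bp) and sinhcafl (35918623 bp). The median span of all genes tested was 19648 bp, so the count of 12 may overstate overlaps with genes of ordinary size.

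The genes of eIF3, the largest initiation factor complex, had mostly negative values. Of 17 genes 16 had negative values, with a median of -0.10. By DESeq2 0 were called and 0 had p under 0.05 before adjustment, beside 2.68% and 13.0% of all genes tested. The 0 calls among 17 genes are near the share of the whole table. The values of 10 genes for the PCI and MPN core, the scaffold that contacts the small subunit, ran from -0.14 for eif3f to -0.01 for eif3eb according to the authors' deposited table. Beside eif3f (SE 0.0931) these included eif3ha at -0.13, eif3m at -0.12, eif3s10 (subunit a) at -0.11, eif3c, eif3ea and eif3s6ip (subunit l) at -0.10 each, and eif3k and eif3hb at -0.09 each. The genes of the other subunits according to the authors' deposited table were eif3i at -0.14 (SE 0.0903), eif3g at -0.12, eif3jb at -0.12, eif3ba at -0.11, eif3d at -0.10 and eif3ja at -0.07.

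Over all 17 eIF3 genes the SD between genes was 0.0661, beside a median SE of 0.0856. With the weakly counted copies eif3bb, eif3eb and eif3hb left out, a choice made after the values were seen, the other 14 genes had an SD of 0.0182 between genes, beside a median SE of 0.0839. Each SE reflects the spread between pools, and these genes are measured in the same pools, so their agreement is no replicate of the comparison. The only positive value was that of eif3bb, at 0.14 (SE 0.0945; unadjusted p = 0.142, DESeq2 adjusted p = 0.563) with a base mean of 203 according to the authors' deposited table. Its deposited span lies inside that of chst12b on the same strand, which had a base mean of 39.4 and a log2 fold change of 0.29 (SE 0.122) according to the authors' deposited table.

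The genes of late factors had negative values, and none passed, beside 2.68% of all genes tested. The gene eif5, for the protein that activates GTP hydrolysis by eIF2, stood at -0.12 (SE 0.0565; unadjusted p = 0.0383, DESeq2 adjusted p = 0.335), and eif5b, for the GTPase of subunit joining, at -0.09 (SE 0.0749) according to the authors' deposited table. The gene eif6, whose product keeps the large subunit from joining too early and takes part in its maturation, had the second lowest value of the 63, at -0.21 (SE 0.0776; unadjusted p = 0.00616, DESeq2 adjusted p = 0.130) with a base mean of 1176 according to the authors' deposited table. All 4 eif5 genes were negative, between -0.12 and -0.08.

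The eIF5A factors, which carry the modified amino acid hypusine and help ribosomes through difficult stretches such as runs of proline, did not pass. The gene of an enzyme that makes hypusine was called. It was the only call among 21 tested genes of elongation, termination and recycling. With 2.68% of all genes tested called, 1 call in so short a list is near the share of the whole table. In the authors' deposited table eif5a, the member with the highest base mean (19644), stood at -0.08 (SE 0.0773), and eif5a2 at -0.11 (SE 0.0937). Hypusine is made by deoxyhypusine synthase and then deoxyhypusine hydroxylase. The hydroxylase gene dohh was lower at -0.30 (SE 0.0811; DESeq2 adjusted p = 0.0130), 1.23-fold, at a base mean of 427, and the synthase gene dhps stood at -0.07 (SE 0.0824; adjusted p = 0.768), per the authors' deposited table. The call of dohh was lost at a threshold of 0.01, with both groups set to equal sums (adjusted p = 0.0555 from the DESeq2 statistics) and with the Wald statistics divided by their spread (0.273). It held after removal of the span trend (0.0478).

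**Figure D3:**
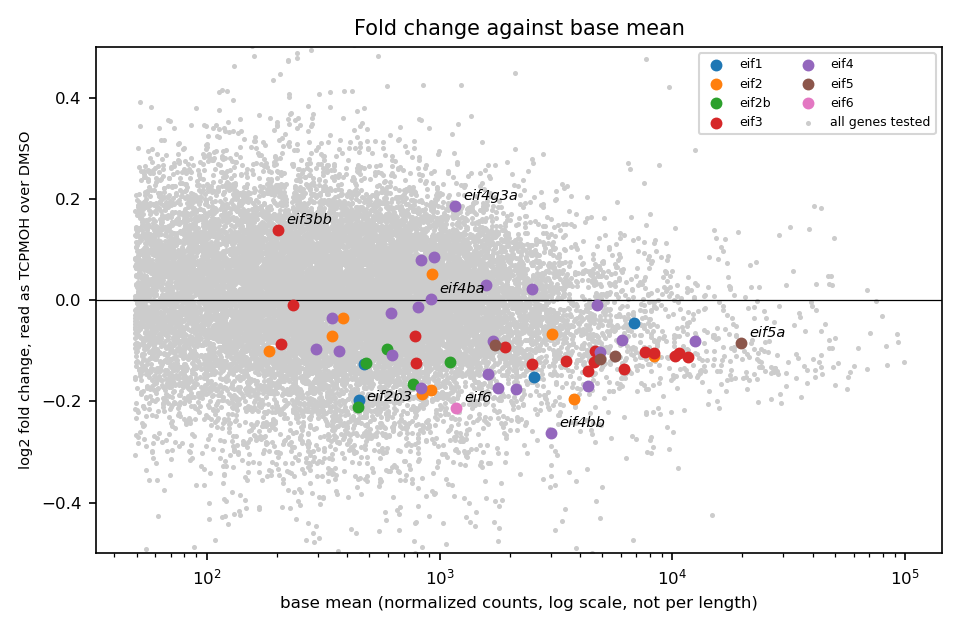
Log2 fold change read as TCPMOH over DMSO (vertical axis, drawn from -0.5 to 0.5) against base mean in normalized counts (horizontal axis, log scale) for the initiation factors, coloured by factor, and all genes tested with a base mean under 100000 (grey). The eIF3 genes with high base means line up near -0.10, while eif4bb (-0.26) lies below and eif4g3a (0.19) above the other members.

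Zebrafish kept duplicate copies of many of these genes, and 13 pairs of related members were compared. In 10 pairs both copies had the same sign. The exceptions were eif4bb with eif4ba, eif3ba with eif3bb, and eif4g2a with eif4g2b. The difference between copies exceeded 0.1 in size in 5 pairs, led by the eIF4B pair (-0.26, eif4bb minus eif4ba) and by eif3ba minus eif3bb (-0.25, SE at most 0.167). It was -0.11 for eif2s1a minus eif2s1b, 0.10 for eif4g3a minus eif4g3b and 0.10 for eif4g2a minus eif4g2b, with SEs of at most 0.149, 0.164 and 0.134. The copy with more counts had the more negative value in 8 of 13 pairs. Base means differed most between eif3ba (10241) and eif3bb (203) and between eif3ea (8377) and eif3eb (234), in normalized counts that are not corrected for transcript length, per the authors' deposited table. How reads were divided between similar copies is not stated, so each copy's value is uncertain to that extent.

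**Figure D4:**
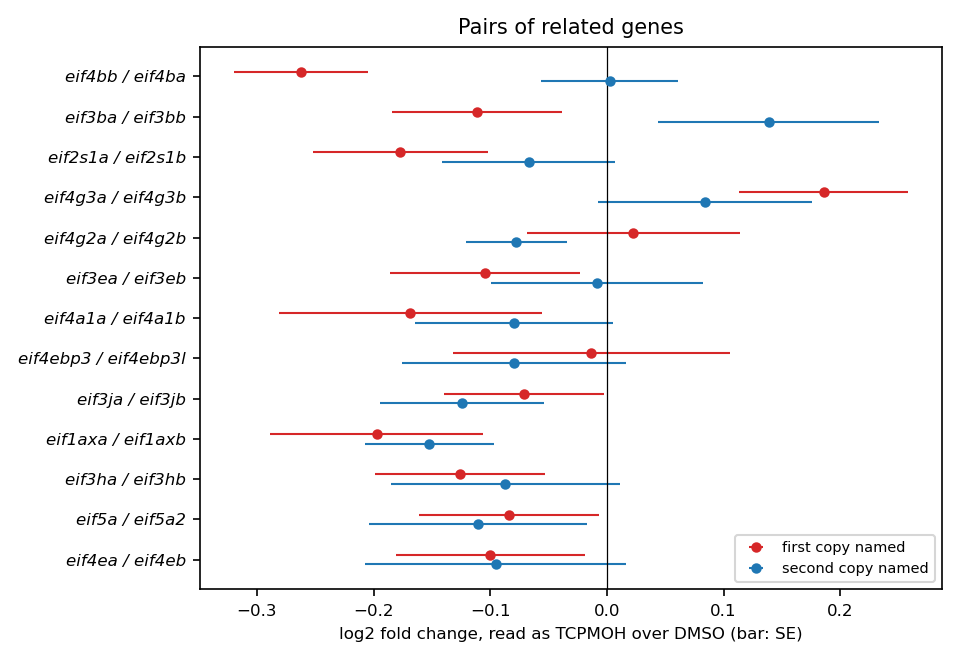
Log2 fold change read as TCPMOH over DMSO (horizontal axis) of both genes of each of the 13 pairs, with bars of 1 SE, ordered by the size of the difference. The copy named first in each label is red and the second is blue. The eIF4B pair at the top is the widest apart, with eif4bb at -0.26 and eif4ba at 0.00.

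Other genes of protein synthesis mostly had small negative values too. For cytosolic ribosomal protein genes the median was -0.14, with 81 of 82 negative. By DESeq2 0 were called, beside 2.68% of all genes tested. Before adjustment 5 (6.10%) had p under 0.05, all lower, beside 7.62% lower of all genes tested and 20.6% of the initiation factors. The 21 tested genes of elongation, termination and recycling had a median of -0.13 with 19 negative. At an unadjusted p under 0.05 that list had 4 lower genes (19.0%) and 0 higher. It also holds the hypusine enzyme genes dohh and dhps and the kinase gene eef2k, and dohh was its only called gene. The termination factor genes gspt1l, at -0.16 (SE 0.0561; DESeq2 adjusted p = 0.0929), and gspt1, at -0.14 (SE 0.0548; adjusted p = 0.161), and the recycling factor gene abce1, at -0.18 (SE 0.0759; adjusted p = 0.238), came next by p according to the authors' deposited table. The elongation factor genes eef1a1l1 and eef2b, with base means of 243564 and 126194, stood at -0.15 (SE 0.0803) and -0.11 (SE 0.0849) there. Poly(A)-binding and scanning genes had a median of -0.10 over 17 tested, with 13 negative and 0 called. Among them according to the authors' deposited table denr, for the reinitiation partner of MCTS1, stood at -0.20 (SE 0.0797; unadjusted p = 0.0142) and pabpc1a, for the main poly(A)-binding protein, at -0.08 (SE 0.0740). At an unadjusted p under 0.05 the poly(A) and scanning list had 2 lower genes (11.8%), denr and paip2b, and 0 higher ones.

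Genes of the mTOR pathway, which controls initiation by phosphorylating 4E-binding proteins and the kinase upstream of eIF4B, had a median of -0.02 over 27 tested genes, turning to 0.03 after the shift to equal sums. The list holds genes that promote mTOR activity and genes that restrain it, so its median gives no direction for the pathway. None was called in the DESeq2 test, beside 2.68% of all genes tested. At an unadjusted p under 0.05 there was 1 higher gene (3.70%), beside 5.43% higher of all genes tested. It was sesn3, of the restraining kind, at 0.12 (SE 0.0631) according to the authors' deposited table. Restraining genes had values of both signs there, among them depdc5 at 0.11 (SE 0.0692) and ddit4 at -0.21 (SE 0.120), the lowest of the list. The related sesn2, counted above in the list of the response to eIF2 phosphorylation, was also negative. The kinase gene mtor stood at -0.02 (SE 0.0791), and the S6 kinase genes rps6kb1a and rps6kb1b at -0.03 (SE 0.0734) and near 0 (-0.000465, SE 0.0654) according to the authors' deposited table. Genes of S phase and mitosis lay on the other side of 0, with a median of 0.11 over 22 tested genes, 19 of them positive. Of these 22 genes 0 were called, and 3 (13.6%) were higher at an unadjusted p under 0.05, with 0 lower.

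**Figure D5:**
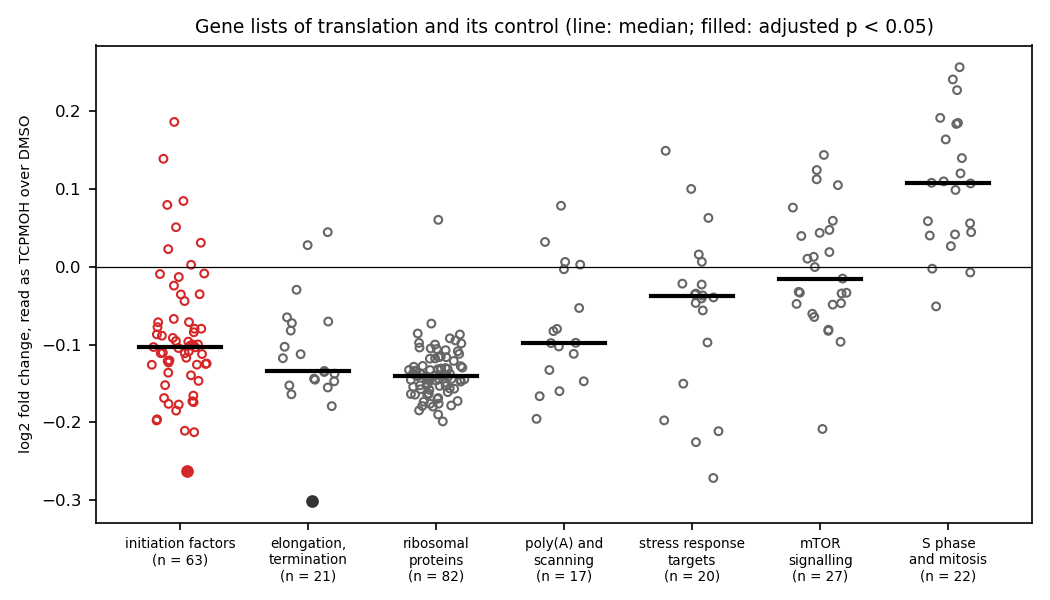
Log2 fold change read as TCPMOH over DMSO (vertical axis) of every tested gene (points) of the initiation factors and of 6 other gene lists of protein synthesis, its control and cell division (horizontal axis), with each list's median as a line. Filled points passed at an adjusted p under 0.05, namely eif4bb among the initiation factors and dohh among the elongation and termination genes.

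All 15 marker genes of larval tissues, from skeletal muscle to photoreceptors, were detected with a base mean of at least 50, from 364 for the islet hormone gene ins to 113174 for the skin keratin gene krt4 according to the authors' deposited table. None was called in the DESeq2 test, beside 2.68% of all genes tested. The median was -0.01 with 8 of 15 negative, or 0.04 with 6 negative after the shift to equal sums. Of the markers, 3 (20%) had an unadjusted p under 0.05, all lower, beside 7.62% lower of all genes tested. They were the intestinal fabp2 at -0.33 (SE 0.105; DESeq2 adjusted p = 0.0563), ins at -0.28 (SE 0.102; adjusted p = 0.125) and krt4 at -0.17 (SE 0.0730; adjusted p = 0.228) according to the authors' deposited table. The part of tissue shares in the values of the initiation factors was not tested.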

How the data were processed

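DESeq2, featureCounts, STAR, cutadapt and FastQC stand without versions in the submitters' processing notes, and the labels' protocols name a stranded mRNA kit. Per the file headers, gene models were version 4.3.2 with Ensembl 99 identifiers. The genome build and the strand setting of the counting are not given in the sources used here, and coordinates are printed as deposited. Base means are a signal, the authors' mean of DESeq2-normalized counts, as the authors deposited it. The authors deposited the fold changes as log2 values. The SE and the Wald statistic are scores, on the log2 scale and in SE units, as deposited. The p-values and their Benjamini-Hochberg adjustment are those of the authors' Wald test. The SEs, none above 0.124, look like those of folds shrunken toward 0 by a prior with a standard deviation of 0.248, which no source states; with that undone the members' median was -0.12. The table has 0 columns named for a sample, so depth per library is unknown here. Its base means sum to 24808364, of which the members hold 0.800%.

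Calls use an adjusted p under 0.05 over the 19257 genes that have one. Intervals are 95% Wald intervals from the deposited SE. Medians of lists and groups are descriptions, with no test. The members, lists and pairs were chosen with earlier results of these data known. A rule set the genes to name, namely called members, each factor's extremes and smallest p, the next 5 by p, paralog pairs, called list genes and a fixed handful of list genes. All other named genes, and the role classes within a factor, were chosen after their values were seen. Of the 63 members, 62 matched RefSeq's table (GRCz12tu) by gene identifier. Alternatives were other thresholds and member filters, adjustment over all 32336 genes with a p-value, 2 other centrings, division of the Wald statistics by their spread (1.4826 times the median absolute deviation), removal of a running median over 1001 genes ordered by span, and undone shrinkage. Scripts were tested on simulated data. Computation used Python 3.11.15 with matplotlib 3.10.9, scipy 1.17.1, numpy 2.4.6 and pandas 2.3.3.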

Additional observations from a re-analysis of the deposited data

How the results depend on the processing

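The fold change of eif4bb and the median of the members stayed negative under every alternative run. By construction, other thresholds, the wider adjustment, the empirical null and undone shrinkage leave every sign as it was, so they give no information here. The fold change of eif4bb was -0.21 at equal sums and -0.25 after removal of the span trend. The call of eif4bb was lost only under the empirical null, where 0 members passed. That setting divides every Wald statistic by the spread of all of them, and the same 55 of 63 members kept negative values. With the groups set to equal sums 2 of 63 members passed, eif4bb as lower and eif4g3a as higher. Of all 19257 genes tested, 574 passed at equal sums and 121 under the empirical null. In both settings the count of members is near the share of the whole table. The median of the members lay between -0.12 (shrinkage undone) and -0.06 (equal sums). In that last setting 7 members turned positive, namely eif1b (0.00389), eif4ebp2 (0.0386), eif4ebp3 (0.0348), eif4enif1 (0.0237), eif2ak1 (0.0125), eif4e2 (0.0127) and eif3eb (0.0393). With the span trend removed eif4ebp2 (0.0251), eif4ebp3 (0.0447) and eif4ba (-0.0193) changed sign. None of these 8 passed in any alternative. At a threshold of 0.1 the elongation and termination list had 2 called genes of 21, the stress response list 1 of 20 and the tissue markers 1 of 15. At that threshold 773 of all 19257 genes tested were called, and such small counts give no result about the lists. The elongation and termination list had 0 at a threshold of 0.01, where 275 of all genes tested were called, at equal sums and under the empirical null. The cause of these changes was not tested. Alternatives chosen after seeing the data (without 12 members that overlap another gene, without the lower copy of each pair, with EIF2AK4) each left 1 member called. These filters reuse the deposited adjusted p-values, none removes eif4bb, and EIF2AK4 did not pass. Their count was therefore fixed in advance and gives no further support. No paired analysis was possible because the table holds no values per library, and for the same reason leaving out replicates was not run.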
